A study of Mus musculus with 9 samples.

Results

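The metallothioneins and the zinc-handling genes of a T cell were followed here in 8 members, chosen by symbol: the metallothioneins Mt1, Mt2 and Mt3, the metal sensor Mtf1, the zinc exporter Slc30a1 and the zinc importers Slc39a6, Slc39a10 and Slc39a8. All 8 had a probe set naming that gene alone, out of 30743 genes measured, and for a gene with several probe sets the brightest on average was kept. The set was put together around the high level of Mt1 in one treatment group, known from earlier results of these data. In the comparisons that hold that group the members' values are therefore a description with no p-value, and how many of them passed a threshold is given beside the share of all genes and supports nothing.

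The cells were pmel1 CD8+ T cells, which carry a transgenic receptor for a peptide of the melanocyte protein gp100. Each naive congenic recipient mouse was given 2000000 Thy1.1+ pmel1 CD8+ cells, an intravenous dose of 100 µg human gp100 peptide, and antibody adding up to 400 µg. The anti-CD27 group received 200 µg of the agonist antibody AT124 with 200 µg of isotype control antibody, the anti-PD-1/L1 group 100 µg each of RMP1-14 against PD-1 and 10F.9G2 against PD-L1 with 200 µg of isotype control, and the combination group all 3 active antibodies without isotype control. Every group thus had peptide and antibody, no group had peptide with isotype control alone, and the ages of the mice are not given in the sources used here. Thy1.1+ CD8+ cells were sorted from single spleens on day 4, and 3 mice per group were measured on 1 whole-transcript array each. In bulk RNA of this kind, fewer cells with a transcript and less transcript per cell cannot be told apart.

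Metallothioneins are small, cysteine-rich proteins that bind zinc and copper and buffer the free metal of the cell. The sensor MTF1 binds zinc, enters the nucleus and activates the metallothionein genes and the exporter gene Slc30a1 through short metal response elements, so that transcripts of Mt1, Mt2 and Slc30a1 commonly serve as readouts of available zinc. Glucocorticoids, oxidants and cytokines also induce Mt1 and Mt2. In T cells, zinc enters through transporters of the SLC39 (ZIP) family and takes part in receptor signalling.

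Array quality differed between the groups. Background control probe sets averaged a log2 level of 4.06 ± 0.08 (SD, n = 3) with anti-PD-1/L1, 3.27 ± 0.06 with anti-CD27 and 3.25 ± 0.04 in the combination. Positive controls, in the same order, were at 5.75 ± 0.19, 6.70 ± 0.02 and 6.81 ± 0.04. Negative control probe sets were not raised with anti-PD-1/L1, at 2.77 ± 0.05 there, 2.92 ± 0.06 with anti-CD27 and 2.78 ± 0.07 in the combination. The median gene was 0.26 lower in each of the other groups than in anti-PD-1/L1, while the combination and anti-CD27 differed by 0.00. Differences from anti-PD-1/L1 are therefore also given relative to the median gene, and the other comparison comes first. Of 5 markers of CD8 T cells, none was below the background controls in any group, and the log2 of their summed level ran from 12.9 to 13.0 in the combination, stood at 13.1 in anti-CD27 and ran from 11.2 to 11.9 in anti-PD-1/L1. Of 24 markers of other blood cells, 15 lay below the mean of the background controls in the combination, 16 with anti-CD27 and 18 with anti-PD-1/L1. Each count used the mean of its own group, so the counts do not compare the groups. The 3 platelet markers lay above that mean in every group.

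Mt1 was higher in the combination than in both single treatments, and the other members followed it in part. Its sister gene Mt2 and the importers Slc39a6 and Slc39a10 were also highest in the combination, by smaller amounts. Mtf1 overlapped between the combination and anti-CD27, and Slc30a1 was lowest in the combination. Mt3 was highest in anti-PD-1/L1, the group with the higher background controls, and the probe set of Slc39a8 gave no information. The plot of levels on each array shows these patterns.

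**Figure D1:**
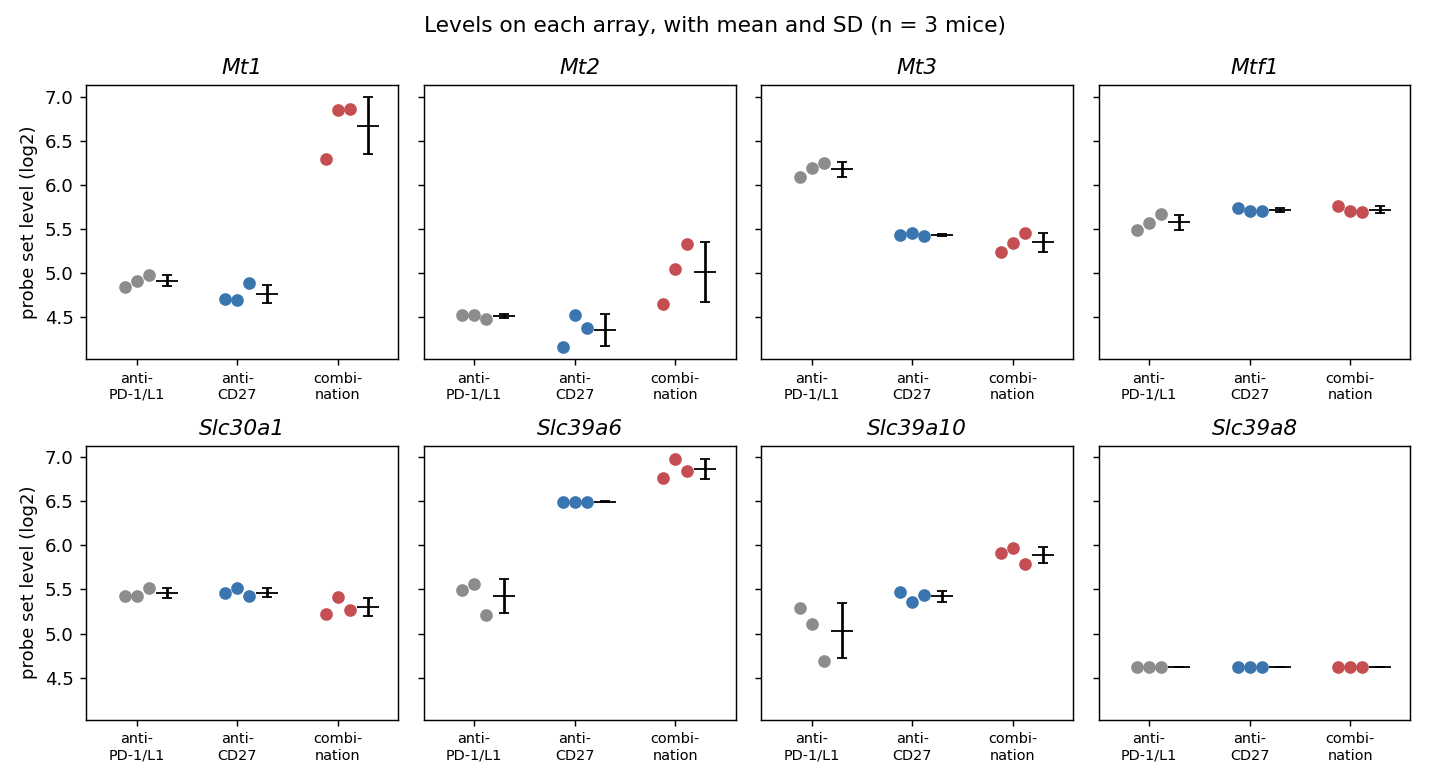
Probe set level (log2) of each of the 8 genes on each array, by treatment group, with the mean and SD of 3 mice beside the points. The combination arrays of Mt1 lie at 6.29 to 6.86 and all others at 4.69 to 4.98, while Slc39a8 stands at 4.62 on all 9.

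Mt1 and Mt2 lie side by side in a cluster on mouse chromosome 8. In the RefSeq gene table of build GRCm38.p6, Mt1 spans chr8:94178883-94180327 and Mt2 chr8:94172618-94173567, and the cluster also holds Mt3 and Mt4. The exporter gene Slc30a1 lies on chromosome 1 at chr1:191906697-191913248. RefSeq promoter sequences of these 3 genes are shown because they are the members best known to answer to MTF1, and because the genes differed in how they moved. Each line holds the 250 bases before the transcript start on the plus strand, 5′ to 3′, from chr8:94178839-94179088 for Mt1, chr8:94172368-94172617 for Mt2 and chr1:191906531-191906780 for Slc30a1. The Mt1 and Slc30a1 windows overlap the start of their gene records, which reach further upstream than the transcript start used. Capitals mark the core of the metal response element, TGCACNC or TGCGCNC, searched on both strands.
Mt1: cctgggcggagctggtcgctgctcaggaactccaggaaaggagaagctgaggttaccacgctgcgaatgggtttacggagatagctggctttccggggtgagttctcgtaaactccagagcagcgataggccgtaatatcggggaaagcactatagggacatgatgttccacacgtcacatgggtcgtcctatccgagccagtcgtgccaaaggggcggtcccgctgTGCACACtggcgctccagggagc
Mt2: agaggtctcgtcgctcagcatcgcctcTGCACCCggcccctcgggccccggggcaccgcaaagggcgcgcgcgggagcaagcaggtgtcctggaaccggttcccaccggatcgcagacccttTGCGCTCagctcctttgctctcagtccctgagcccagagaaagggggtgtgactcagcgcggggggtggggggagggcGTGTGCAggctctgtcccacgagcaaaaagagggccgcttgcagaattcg
Slc30a1: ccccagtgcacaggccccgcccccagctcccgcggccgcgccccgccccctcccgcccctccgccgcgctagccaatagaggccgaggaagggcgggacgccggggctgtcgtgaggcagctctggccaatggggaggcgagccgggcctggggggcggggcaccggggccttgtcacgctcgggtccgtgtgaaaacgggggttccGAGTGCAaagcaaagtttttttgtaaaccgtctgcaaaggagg

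The promoter table also holds the 50 bases after each start, and matches there were counted too. Which side of a start a match falls on, and how many matches a window holds, depend on the start used for each gene. Mt1 had 2 matches after the start used, at chr8:94179091-94179115, shown as the 25 bases that hold both.
Mt1 after the start: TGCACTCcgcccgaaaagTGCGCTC
Over the whole window of 300 bases, Mt1 had 3 matches, all on the plus strand, Mt2 had 4, with 2 on each strand, and Slc30a1 had 2, both on the minus strand, and no matches overlapped. Of 32851 promoter windows of this length in the table, 25.7% held at least 1 match, 7.11% at least 2, 1.97% at least 3 and 0.517% at least 4. The windows of Mt3 and Mt4 held 1 match each, and none was found in that of Mtf1 or in either window of Slc39a10. The promoter of Slc39a6 was not analysed here. Of the 2 windows of Slc39a8, 1 held a match. A match is only a run of these letters, and its absence says nothing of MTF1 at the gene.

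Mt1 had log2 levels of 6.29, 6.85 and 6.86 on the combination arrays, 4.71, 4.69 and 4.88 on the anti-CD27 arrays, and 4.84, 4.91 and 4.98 on the anti-PD-1/L1 arrays. The combination arrays all lay far above the other 6, and the single treatments overlapped. Group means were 6.67 ± 0.32 (SD, n = 3), 4.76 ± 0.10 and 4.91 ± 0.07. The combination was thus 3.75-fold above anti-CD27, a difference of 1.91 ± 0.14 (log2 difference ± SE), and 3.38-fold above anti-PD-1/L1 (1.76 ± 0.14, or 2.02 relative to the median gene). Within the combination, replicate 1 was the lowest array for Mt1.

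Mt2, the paralog usually induced together with Mt1, was at 4.65, 5.04 and 5.32 in the combination, 4.16, 4.52 and 4.38 in anti-CD27, and 4.52, 4.53 and 4.48 in anti-PD-1/L1. Its combination arrays were again the highest, and replicate 1 was again the lowest of them. The combination mean of 5.01 ± 0.34 (SD, n = 3) exceeded anti-CD27 (4.35 ± 0.18) by 0.65 ± 0.16 and anti-PD-1/L1 (4.51 ± 0.03) by 0.50 ± 0.16, or by 0.76 relative to the median gene. Mt2 therefore moved in the direction of Mt1 by a smaller log2 amount, with a 1.57-fold difference from anti-CD27. Both probe sets stood nearer to background in the single treatments than in the combination. The Mt2 mean exceeded 82.7% of the 5222 negative control probe sets in anti-CD27 and 91.9% in the combination, and that of Mt1 exceeded 87.4% and 98.1%. A probe set close to background can understate a fold, and whether this held for Mt1 or Mt2 was not tested.

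Mt3, a metallothionein best known from brain, went another way. It was at 5.24, 5.34 and 5.45 in the combination, 5.42, 5.45 and 5.42 in anti-CD27, and 6.08, 6.19 and 6.25 in anti-PD-1/L1. The combination and anti-CD27 overlapped, with a difference of -0.09 ± 0.07, and all 3 anti-PD-1/L1 arrays lay above both. Anti-CD27 was below anti-PD-1/L1 by -0.74 ± 0.07 (adjusted p = 2.92e-05, limma's moderated test over all genes), or by -0.48 relative to the median gene, and the combination was below it by -0.83 ± 0.07 (-0.57 relative to the median gene). Between anti-CD27 and anti-PD-1/L1 the background controls differed by -0.79 and the negative controls by 0.15. Over the 3 groups the Mt3 mean stayed 2.09 to 2.16 above the mean of the background controls. Mt4, the neighbouring metallothionein known from squamous epithelium, showed the same order, at 4.49 ± 0.07 (SD, n = 3) with anti-PD-1/L1, 3.85 ± 0.03 with anti-CD27 and 3.75 ± 0.08 in the combination, and its mean lay 0.43 to 0.58 above the background controls. The part of the background in the Mt3 and Mt4 differences was not tested.

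**Figure D2:**
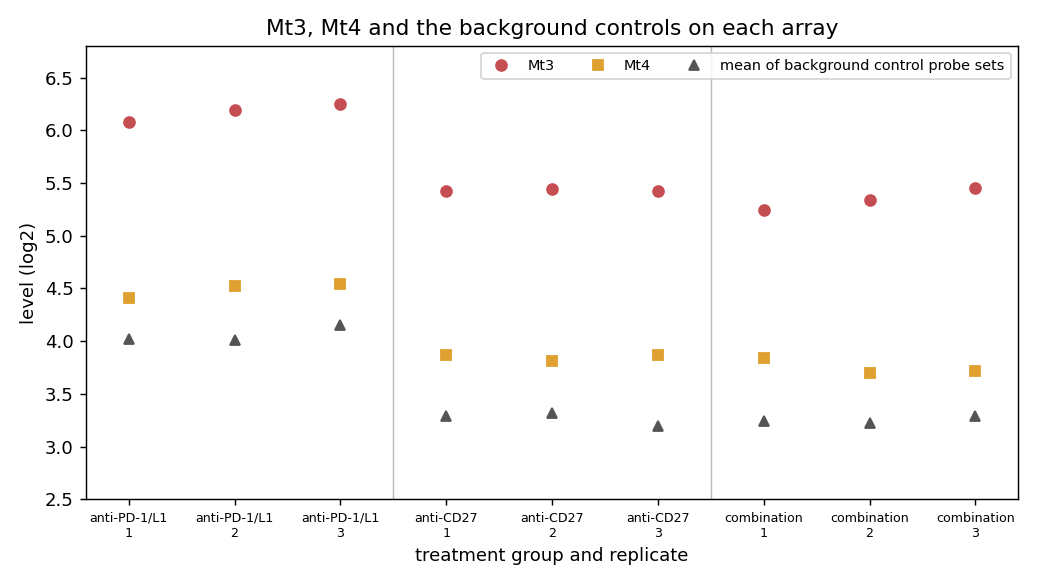
Log2 level of Mt3, Mt4 and the mean of the 23 background control probe sets on each of the 9 arrays, in order of group and replicate. All of these stand higher on the 3 anti-PD-1/L1 arrays, where Mt3 is at 6.08 to 6.25, than on the other 6, where it is at 5.24 to 5.45.

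Mtf1, which encodes the metal sensor itself, stayed within a range of 0.27 over all 9 arrays. Its levels were 5.76, 5.70 and 5.69 in the combination, 5.73, 5.70 and 5.70 in anti-CD27, and 5.49, 5.56 and 5.66 in anti-PD-1/L1. The combination and anti-CD27 overlapped and differed by 0.01 ± 0.06. Mtf1 was 0.14 ± 0.06 higher in anti-CD27 than in anti-PD-1/L1 and did not pass (adjusted p = 0.0548), and this sign turned to -0.10 when the values were quantile normalized again. Its difference between the combination and anti-PD-1/L1, 0.14 ± 0.06, turned to -0.14 in the same way. Relative to the median gene both differences were 0.40.

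Slc30a1, the plasma membrane exporter ZnT1 and a classical MTF1 target, was not higher in the combination. It was at 5.22, 5.41 and 5.27 there, 5.46, 5.52 and 5.42 in anti-CD27, and 5.42, 5.42 and 5.52 in anti-PD-1/L1. The combination arrays were the lowest, and the single treatments overlapped. The combination differed from anti-CD27 by -0.16 ± 0.06 and from anti-PD-1/L1 by -0.16 ± 0.06, opposite in sign to Mt1 and Mt2. The single treatments differed by 0.01 ± 0.06 (adjusted p = 0.901). Relative to the median gene, the combination was 0.10 and anti-CD27 0.27 above anti-PD-1/L1, so the sign of the combination against anti-PD-1/L1 depends on the shift of all genes.

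Among the importers, Slc39a6 (ZIP6) and Slc39a10 (ZIP10), close relatives that are known to form a complex at the cell surface, ranked the groups in one order. Slc39a6 was at 6.77, 6.98 and 6.85 in the combination, 6.50, 6.49 and 6.50 in anti-CD27, and 5.50, 5.57 and 5.21 with PD-1/L1 blockade, with no overlap between any groups. The combination was above anti-CD27 by 0.37 ± 0.10 and above anti-PD-1/L1 by 1.44 ± 0.10. Between the single treatments, Slc39a6 was 2.10-fold higher in anti-CD27 (1.07 ± 0.10, adjusted p = 2.61e-05), in 3 of 3 arrays. Relative to the median gene, the differences from anti-PD-1/L1 were 1.70 for the combination and 1.33 for anti-CD27.

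Slc39a10 was at 5.92, 5.97 and 5.79 in the combination, 5.48, 5.35 and 5.44 in anti-CD27, and 5.29, 5.11 and 4.69 in anti-PD-1/L1. Its groups did not overlap either, although the anti-PD-1/L1 arrays spread widely (SD 0.31, n = 3). The combination exceeded anti-CD27 by 0.47 ± 0.14 and anti-PD-1/L1 by 0.86 ± 0.14. The difference between anti-CD27 and anti-PD-1/L1, 0.39 ± 0.14, passed (adjusted p = 0.0293), but not with the arrays of these groups alone (adjusted p = 0.0637), after repeated quantile normalization (adjusted p = 0.0960), or without anti-CD27 replicate 1 (adjusted p = 0.0815) or 3 (adjusted p = 0.0732). Its size rests in part on anti-PD-1/L1 replicate 3, the lowest array, without which it was 0.22 (adjusted p = 0.0393). Relative to the median gene, the combination was 1.12 and anti-CD27 0.65 above anti-PD-1/L1.

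Slc39a8, which encodes ZIP8, an importer of zinc and manganese, had the value 4.62 on all 9 arrays. It was 1 of 32 genes with a single value throughout, so this probe set allowed no comparison between treatments.

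**Figure D3:**
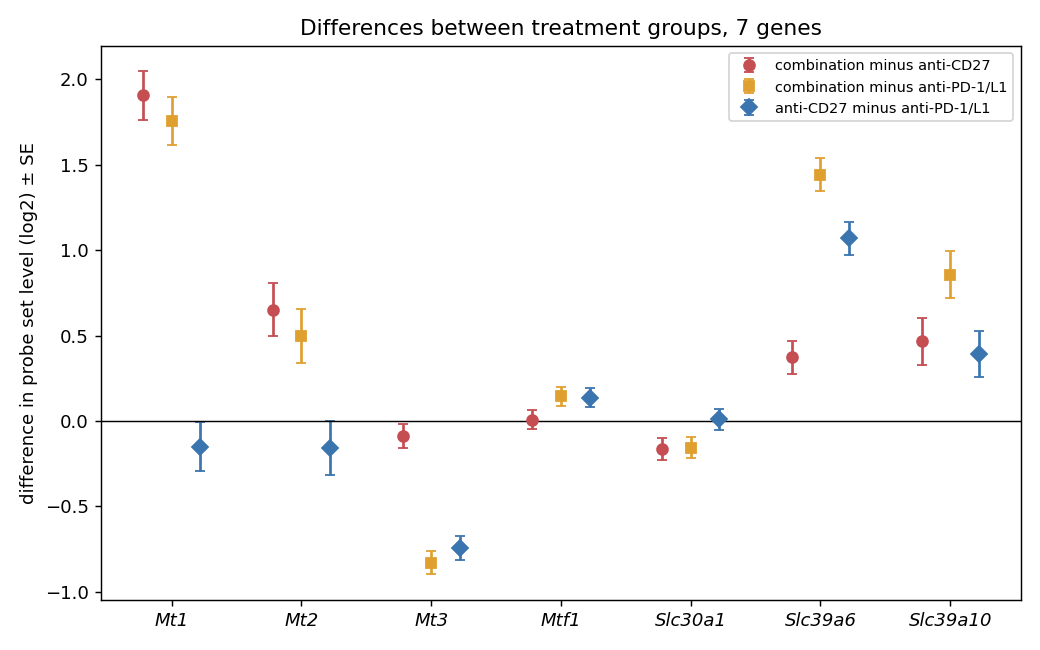
Differences between groups (log2, with limma's SE) for the 7 genes whose values varied, in the 3 comparisons. Mt1 stands at 1.91 and 1.76 in the comparisons that hold the combination and at -0.15 between the single treatments, while Slc39a6 and Slc39a10 are above 0 in all 3.

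Setting the combination against anti-CD27 asks how checkpoint blockade altered cells that also had the CD27 agonist. There, as a description only, 1 of the 8 members, Mt1, was under an adjusted p of 0.05 (limma, Benjamini-Hochberg over all genes), as were 1.78% of all genes. Arrays of 5 members did not overlap between these groups, where those of 20.5% of all genes did not. With only the 6 arrays of these groups in the fit, 3 members passed, Mt1, Slc39a6 and Slc39a10, where 5.37% of all genes did (3.98% higher and 1.39% lower), and without anti-PD-1/L1 replicate 3 the same 3 passed (2.26% of all genes). With array weights 4 passed, Mt2 included, where 8.17% of genes did (5.90% higher and 2.27% lower), and without combination replicate 1 the 2 that passed were Mt1 and Mt2 (0.836% of all genes). Against anti-PD-1/L1, 5 members were called higher in the combination and 1 lower, beside 19.0% and 53.3% of all genes (72.3% in either direction), and the arrays of 7 did not overlap, as for 73.4% of all genes.

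Between anti-CD27 and anti-PD-1/L1, a comparison that the choice of the members did not use, Slc39a6 and Slc39a10 were called higher and Mt3 lower, so that 3 of 8 passed where 70.7% of all genes did (17.1% higher and 53.6% lower). The arrays of 4 members did not overlap, as for 72.5% of all genes. Mt1 did not pass there, with -0.15 ± 0.14 (adjusted p = 0.358), nor did Mt2, with -0.16 ± 0.16 (adjusted p = 0.385). The 95% interval ran from -0.48 to 0.17 for Mt1 and from -0.52 to 0.20 for Mt2. Relative to the median gene the differences were 0.11 and 0.10, so their sign depends on the shift of all genes. The 2 comparisons with anti-PD-1/L1 share its arrays and are not independent of each other.

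Other genes that answer to metal or to the other inducers of metallothioneins were taken from 6 lists, with 74 genes measured that are not members. These lists were chosen with earlier results of these data known, so their shares beside those of all genes give no independent support. In the combination against anti-CD27, 2 of the 74 rose and none fell, where 1.26% of all genes rose and 0.520% fell, and 21 (28.4%) had an unadjusted p under 0.05, as had 9.68% of all genes. Quantile normalization, which called 1.79% of all genes, left 1 call, Nup93. Nup93 was also the call left without anti-CD27 replicate 1 or 2 (0.566% and 0.595% of all genes) and without combination replicate 1 or 2 (0.836% and 0.677%). The 6 arrays alone gave 13 calls beside 5.37% of all genes, array weights 17 beside 8.17%, and leaving out anti-PD-1/L1 replicate 1 gave 9 beside 3.97%. The median difference over the 74 genes was 0.01, against 0.00 over all genes.

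Of 21 further zinc transporters and metallothioneins, none passed (limma), with a median of 0.01 and 2 at an unadjusted p under 0.05. The largest difference was that of Slc30a9, at 0.31 ± 0.09 (adjusted p = 0.203). With the 6 arrays alone 3 of the 21 rose, Slc30a4, Slc30a5 and Slc30a9, all of the ZnT family, and with array weights 2 did.

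Among 13 genes of the oxidative and metal stress response, none passed (limma), with a median of 0.07 and 5 at an unadjusted p under 0.05. Gsr, which encodes glutathione reductase, had the largest difference, at 0.57 ± 0.14 (adjusted p = 0.0929), from 6.37 ± 0.12 (SD, n = 3) in anti-CD27 to 6.94 ± 0.06 in the combination, with no overlap. Txnrd1, thioredoxin reductase, differed by 0.38 ± 0.09 (adjusted p = 0.0965), and Hmox1, the heme oxygenase induced by heme and heavy metals, by 0.42 ± 0.16 (adjusted p = 0.388). With the 6 arrays alone 4 of the 13 rose, Gsr (adjusted p = 0.0160), Txnrd1 (adjusted p = 0.0123), Hmox1 (adjusted p = 0.0276) and the thioredoxin gene Txn1. Array weights gave 5, with Nfe2l2, the transcription factor NRF2, added. Against anti-PD-1/L1, Gsr and Txnrd1 were also higher in the combination, by 0.81 ± 0.14 and 0.97 ± 0.09, where 19.0% of all genes were called higher. Hmox1 was not, with 0.06 ± 0.16 (limma, adjusted p = 0.743), so it did not share the pattern of Mt1 over the 3 groups. The median gene differed by -0.26 there.

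Of 9 glucocorticoid-responsive genes, Fkbp5, a chaperone partner of the glucocorticoid receptor and a sensitive target of it, rose by 0.35 ± 0.05 (adjusted p = 0.0102). The other 8 were not called, and 7 of the 9 had an unadjusted p under 0.05. Errfi1, a feedback inhibitor of the EGF receptor, had the largest difference of the list, at 0.41 ± 0.13 (adjusted p = 0.219), in the direction of Fkbp5. Fkbp5 was at 6.24, 6.22 and 6.18 in the combination and 5.88, 5.82 and 5.88 in anti-CD27, with no overlap. The call was lost after quantile normalization (adjusted p = 0.0598) and without replicate 1 or 2 of anti-CD27 (adjusted p = 0.0529 and 0.0627) or of the combination (adjusted p = 0.0531 and 0.0578). Tsc22d3, which encodes GILZ, and Per1, 2 further targets of the receptor, differed by -0.21 ± 0.08 (adjusted p = 0.399) and -0.27 ± 0.07 (adjusted p = 0.137), and the kinase gene Sgk1 by -0.18 ± 0.06 (adjusted p = 0.347), opposite to Fkbp5. With the 6 arrays alone Errfi1 and Fkbp5 rose, and with array weights these 2 rose while Per1, Sgk1 and Tsc22d3 fell. The list's median was -0.03.

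None of 15 genes of iron and copper handling passed (limma, 3 at an unadjusted p under 0.05, median -0.01), and Ireb2, an iron regulatory protein, had the largest difference at 0.28 ± 0.11 (adjusted p = 0.454). Array weights called Ireb2 and Tfrc, the transferrin receptor gene, higher. In the hypoxia response none of 10 passed (limma, 3 at an unadjusted p under 0.05, median -0.01), and Ero1a, an oxidase of the endoplasmic reticulum, differed most, by 0.55 ± 0.16 (adjusted p = 0.183). With the 6 arrays alone Ireb2 and Ero1a rose, and the hypoxia kinase gene Pdk1 fell. In the unweighted fit over all 9 arrays, no gene of the 3 metal-related lists passed between the combination and anti-CD27.

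**Figure D4:**
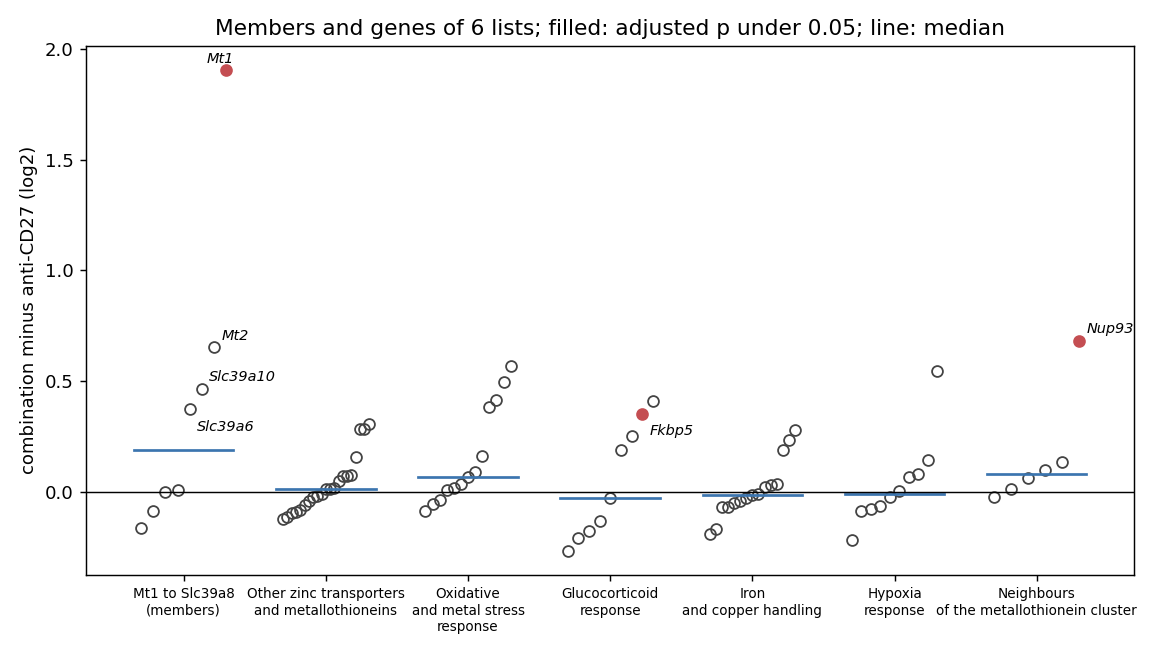
Difference between the combination and anti-CD27 (log2) for the 8 members and for the genes of 6 lists, with filled points for an adjusted p under 0.05 and a line at each median. Mt1 at 1.91 stands above every list gene, the highest of which is Nup93 at 0.68.

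Along chromosome 8, the measured genes on the other side of Mt3 and Mt4 did not pass. Bbs2, the nearest of them, differed by 0.01 ± 0.11 between the combination and anti-CD27, and Ogfod1 and Nudt21 by 0.10 ± 0.13 and 0.06 ± 0.06. On the side of Mt1, the next protein-coding gene is Nup93, a scaffold protein of the nuclear pore, at chr8:94214564-94328100. Nup93 rose by 0.68 ± 0.08 (adjusted p = 0.00686), from 5.69, 5.81 and 5.81 in anti-CD27 to 6.41, 6.33 and 6.61 in the combination. Of the 6 neighbours measured it was the only one called in this comparison, and it passed under each alternative tried (adjusted p from 0.000633 to 0.0463). Unlike Mt1, Nup93 also differed between the single treatments. It was 0.59 ± 0.08 higher in anti-CD27 than in anti-PD-1/L1 (limma, adjusted p = 0.000301), where 17.1% of all genes were called higher. Mt1 differed there by -0.15 and the median gene by -0.26.

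**Figure D5:**
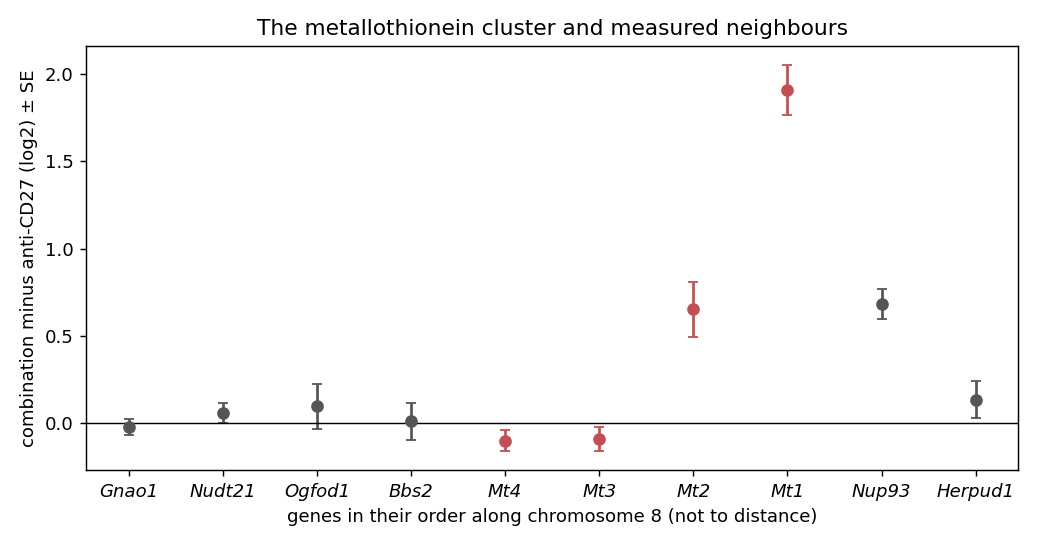
Difference between the combination and anti-CD27 (log2, with limma's SE) for the metallothionein genes (red) and 6 measured neighbours (grey), in their order along chromosome 8 and not to distance. Mt1 at 1.91, Nup93 at 0.68 and Mt2 at 0.65 adjoin each other, while Mt3 and Mt4 lie at -0.09 and -0.10.

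Against anti-PD-1/L1, where most genes of the array passed, 29 of the 74 list genes were higher and 29 lower in the combination, beside 19.0% and 53.3% of all genes. In anti-CD27, 24 were higher and 26 lower, beside 17.1% and 53.6% of all genes, shares that also stand beside the counts that follow. Of 21 other zinc transporters and metallothioneins, 6 were higher and 10 lower in anti-CD27, among them Slc39a9 (ZIP9, 0.57 ± 0.10, adjusted p = 0.000767) and Slc30a3 (-0.57 ± 0.08, adjusted p = 0.000339). Of 13 genes of the oxidative and metal stress response, 5 were higher and 4 lower in anti-CD27. They included Nfe2l2 (0.83 ± 0.05, adjusted p = 2.06e-06) and Srxn1 (-0.76). Of 15 genes of iron and copper handling, 5 were higher and 4 lower. Among these were the ferritin heavy chain gene Fth1 (1.13 ± 0.05, adjusted p = 6.20e-07) and Atp7b (-0.61). Markers of CD8 T cells were higher in 4 of 5 cases in the same comparison, and 18 of 24 markers of other cells were lower; the part of cell purity or array quality in these differences was not tested.

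Between the combination and anti-CD27, 1 of the 24 markers of other cells rose, Itgam (0.61), which encodes the integrin chain CD11b and is also found on effector T cells, and 23 did not pass. The log2 of their summed level ran from 8.43 to 8.55 with anti-PD-1/L1, 8.11 to 8.15 with anti-CD27 and 8.05 to 8.14 in the combination. Itgax, an integrin gene outside these marker lists, was also higher in the combination, at 7.49 ± 0.10 (SD, n = 3) against 4.77 ± 0.28 in anti-CD27. The part of cells bearing Itgam or Itgax in the Mt1 difference was not tested.

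The genes whose levels were most like those of Mt1 were found by Pearson's r over the arrays, among genes with an SD of at least 0.5. Over all 9 arrays and 2241 genes these were Il2ra (r = 0.99), which encodes CD25, the alpha chain of the receptor for interleukin-2, the lysosomal sulfatase gene Arsb (0.99), the integrin gene Itgax (0.98), the sterol-binding protein gene Osbpl3 (0.98) and Il12rb2 (0.98), a chain of the interleukin-12 receptor. Over the 6 combination and anti-CD27 arrays and 163 genes they were Klrg1, Osbpl3, Serpinb9, Anxa2 and Kcnk5, each at 0.99. Among the members, r with Mt1 over the 9 arrays was 0.89 for Mt2, 0.75 for Slc39a10, 0.63 for Slc39a6, 0.36 for Mtf1, -0.48 for Mt3 and -0.73 for Slc30a1. Over the 6 combination and anti-CD27 arrays it was 0.98 for Slc39a6, 0.94 for Slc39a10, 0.90 for Mt2, -0.04 for Mtf1, -0.44 for Mt3 and -0.72 for Slc30a1. These values mostly reflect the gap between the groups, since the arrays of a group share a treatment, and they are given as a description.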

How the data were processed

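Transcripts were measured on 9 arrays, 1 per mouse. The deposited values are log2 probe set levels from the authors. The submitters' processing notes name RMA and oligo 1.38.0; as a method, RMA subtracts a modelled background, quantile normalizes the probes and fits each probe set by median polish. The build behind the probe sets is not given in the sources used here. Of 65956 transcript probe sets, 31216 named 1 gene, 1534 several and 33206 none. Symbols came from the platform annotation and were updated through gene identifiers. Group differences came from limma 3.58.1 under R 4.3.3 (lmFit and eBayes, 1 mean per group over all 9 arrays), two-sided, with Benjamini-Hochberg adjustment over 30743 genes, no filter on low values and a threshold of 0.05; the fit was tested on simulated data. Levels are means with the SD over 3 mice. For arrays, their number limits the precision. The labels describe single mice per array, so the spread is that between mice.

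The members and lists were chosen with earlier results of these data known. Of the 78 genes in the lists, 74 had a probe set of their own. All members were named; of each list, called genes by size of change, up to 4, or else the gene with the largest difference, and genes called with the 6 arrays alone or with array weights between the combination and anti-CD27, and the neighbours of the cluster, were added after their values were seen. Promoter sequences and gene positions are from RefSeq, GRCm38.p6, and the motif was searched in windows of 300 bases. Alternatives were the arrays of the groups compared alone, a filter that drops the 50% of genes with the lowest means, repeated quantile normalization, trend and robust moderation, the mean over probe sets, array weights, the replicate number as a block, and each array left out in turn.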

Additional observations from a re-analysis of the deposited data

How the results depend on the processing

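Each comparison was recomputed under 16 alternatives. Of 336 member differences so recomputed, 297 kept their sign and their side of the threshold, 11 newly passed, 19 no longer passed and 9 changed sign. The Mt1 difference between the combination and anti-CD27 ran from 1.69 to 2.09. In that comparison 1 member and 2 list genes passed over all 9 arrays, beside 1.78% of all genes. With the 6 arrays compared alone 3 members and 13 list genes passed (5.37% of all genes). Array weights gave 4 and 17 (8.17%), and repeated quantile normalization 1 and 1 (1.79%). Leaving out 1 array gave 1 to 3 members and 1 to 9 list genes. The share of all genes, computed for some of these fits only, was 0.566% to 3.97%. The cause was not tested. The arrays of anti-PD-1/L1 took the lowest weights (0.24 to 0.51, against 0.96 to 2.24).

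After repeated quantile normalization, Mtf1 changed sign between the combination and anti-CD27 (-0.0366), the combination and anti-PD-1/L1 (-0.14) and the single treatments (-0.10), and between the single treatments Mt2 (0.10) and Slc30a1 (-0.17) did too. With 1 array left out, the Mtf1 difference between the combination and anti-CD27 ran from -0.0146 to 0.02, and that of Slc30a1 between the single treatments from -0.0158 to 0.0419. The cause was not tested. Between the combination and anti-PD-1/L1, as a description only, the Mtf1 difference ran from -0.14 to 0.19 and did not pass under most alternatives. That of Mt2 ran from 0.34 to 0.68. It did not pass with array weights or without anti-PD-1/L1 replicate 3 or combination replicate 2 or 3. Nothing is read from which of these fits passed.

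The replicate numbers of the titles were shared between groups, but deviations of same-numbered arrays correlated at only -0.20 to 0.16, so the arrays share a number and were not treated as paired. With the replicate block, 1 member and 2 list genes passed between the combination and anti-CD27. In the same fit 5 and 59 passed between the combination and anti-PD-1/L1, and 3 and 52 between the single treatments. The share of all genes that passed in this fit was not computed, so nothing is read from these counts. Values near background limit what Mt2 and Mt4 can show.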

Other observations

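The deposited values hold many exact ties between arrays. All 9 values differed in 35.3% of 30743 genes, and 32 genes had a single value on every array, Slc39a8 among them. Between arrays of anti-CD27, 14.1% to 19.1% of genes had identical values, between combination arrays 10.8% to 12.3%, and between anti-PD-1/L1 arrays 1.77% to 1.96%. An anti-CD27 array and a combination array shared 9.95% to 19.7% of values. Of the members, Mt1, Mt2, Mt3 and Slc39a10 had 9 distinct values, Slc39a6 had 8, and Mtf1 and Slc30a1 had 7. The SD of 0.01 for Slc39a6 in anti-CD27 rests on 3 arrays of which 2 hold the same value.

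The background control probe sets rise with their GC count, from 0.97 to 8.34 with anti-PD-1/L1, from 0.80 to 7.03 with anti-CD27 and from 0.84 to 6.93 in the combination. In anti-CD27, 8 of these 23 controls lay at or above the Mt1 mean and 9 at or above that of Mt2; in the combination 2 and 8 did. The GC count of the probes of the members is not in the files used here.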
